A study of Homo sapiens with 8 samples.

Results

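RNA-seq of LP-1 cells was examined for 9 genes of antigen presentation on HLA class I. They are the heavy chain genes HLA-B, HLA-C, HLA-E and HLA-F, the light chain gene B2M, the peptide transporter genes TAP1 and TAP2, the loading factor gene TAPBP, and NLRC5, a transactivator of class I genes. Members were found by gene symbol, with no threshold on their values. Of the 63129 rows of the table, 51 carry one of these symbols. A set of 41 lies on alternative haplotypes of the major histocompatibility complex and is at 0 in all 8 libraries, as are all 2329 rows of such haplotypes. The other 10 rows all passed the filter of a mean of at least 1 RPKM (a read count corrected for gene length and for library depth) and were tested among 14732 genes. TAP2 has 2 of these rows, which overlap each other.

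LP-1 is a human multiple myeloma line. SGC-CBP30 blocks the bromodomains of the acetyltransferases CBP and EP300, whereas CPI203 blocks those of the BET proteins. Cells were treated for 6 hr with 2.5 μM SGC-CBP30, with 0.25 μM CPI203 or with DMSO, the solvent, and each of the 4 groups holds 2 libraries. A pair of DMSO libraries goes with each compound, and the pairs were assigned by the prefix of the library names in the labels. All comparisons are from a single cell line, and dose and library prefix differ between the compounds. Libraries that share a prefix are called an experiment below, a name that the labels do not give.

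Class I molecules show peptides from inside the cell to CD8 T cells. The proteasome cuts proteins, TAP1 and TAP2 carry the peptides into the endoplasmic reticulum, tapasin (TAPBP) holds empty class I molecules at the transporter until a peptide is bound, and the heavy chain reaches the surface paired with beta-2-microglobulin (B2M). Interferon gamma raises most of these genes, and NLRC5 is recruited to their promoters by the RFX and NFY factors. HLA-E shows mainly signal peptides of other class I chains to the inhibitory receptor NKG2A of NK cells.

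Estimated depth was between 26000000 and 50100000 reads per library, with the SGC-CBP30 libraries deepest. Even NLRC5, lowest of the 9 genes, had at least 202 estimated reads per kilobase in each library, and the overlapping TAP2 row had at least 89. For genes with at least 10 RPKM, the SD of the log2 difference between replicates was 0.091 to 0.115. All 7 plasma cell markers were at 27.9 RPKM or more on average over the 8 libraries, while the B cell, T cell, monocyte and epithelial markers were all under 1 RPKM, with PAX5 and EPCAM at 0. The summed RPKM of the plasma cell markers was 1194 to 1241 in DMSO and 880 to 906 with SGC-CBP30. In the CPI203 experiment that sum was 1277 to 1291 in DMSO and 817 to 831 with the compound. The summed RPKM of the T cell markers was 0.0338 to 0.0890 in the SGC-CBP30 experiment and 0.830 to 1.12 in the CPI203 experiment. Of the erythroid markers, HBB averaged 1.73 RPKM. The summed RPKM of the erythroid list was 3.19 to 3.55 in DMSO and 1.09 to 2.07 with CPI203, and 0.773 to 0.802 in DMSO and 1.27 to 1.36 with SGC-CBP30. The part of these markers in the results was not tested.

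The members spanned a wide range of levels on the RPKM scale. B2M was highest, with a mean of 1409 RPKM over the 8 libraries, followed by HLA-B at 569, HLA-C at 456, HLA-E at 127, TAPBP at 89.0 and TAP1 at 52.2 RPKM. HLA-F and TAP2 were level with each other at 37.7 and 37.3 RPKM, and HLA-F was the higher of the pair in 2 of the 8 libraries. NLRC5 was lowest at 9.52 RPKM. Every other neighbouring pair in this order held its order in all 8 libraries. Class I heavy chain genes are polymorphic and share long stretches of sequence, so reads can be split between them, and the value of a single heavy chain gene is less certain than their sum. The HLA-B row also shares 543 bases with XXbac-BPG248L24.12 (mean 1.83 RPKM), and the TAP1 row shares 1288 bases with XXbac-BPG246D15.8 (mean 11.6 RPKM).

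**Figure D1:**
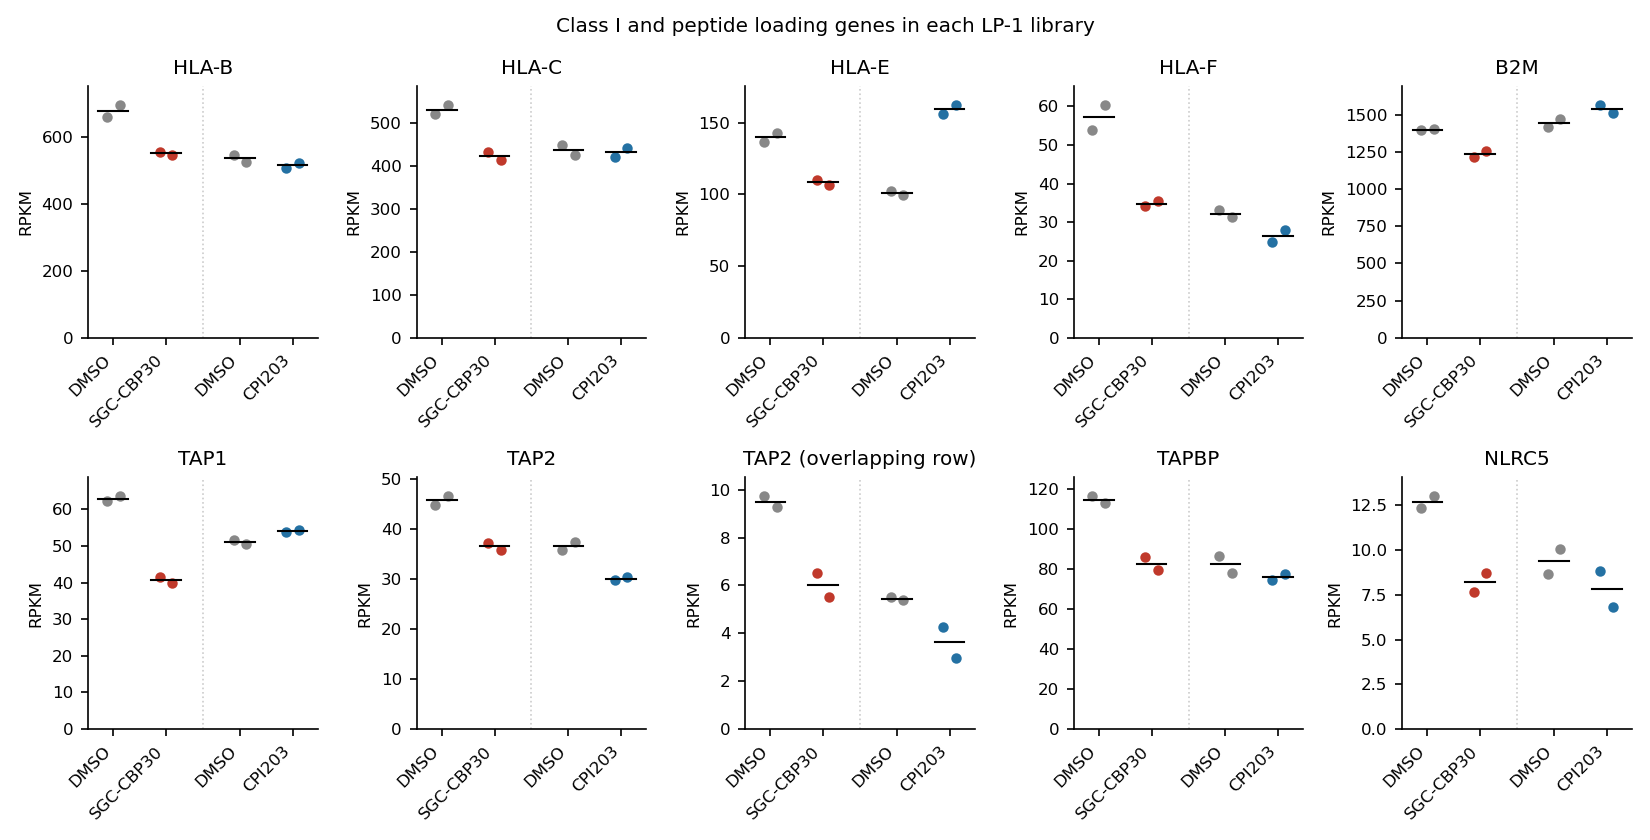
RPKM of the 10 rows of the members (vertical axes, each from 0) in each of the 8 LP-1 libraries, as points, with the mean of each group of 2 as a line; the dotted line divides the SGC-CBP30 experiment (left) from the CPI203 experiment (right). Both SGC-CBP30 libraries sit below both of their DMSO libraries in all 10 panels, the CPI203 libraries sit above theirs for HLA-E, B2M and TAP1, and the DMSO pairs of the 2 experiments differ.

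The first comparison asked what inhibition of the CBP and EP300 bromodomains does to the class I pathway. With SGC-CBP30 every member fell, by between 0.18 on the log2 scale for B2M and 0.71 for HLA-F. The decreases were modest for the abundant heavy chains HLA-B and HLA-C and larger for TAP1, HLA-F and NLRC5. At an adjusted p under 0.05 (limma, Benjamini-Hochberg over all 14732 genes), 10 of 10 rows were lower, against 14.8% of all genes tested, and 0 were higher, against 25.6%. The threshold of 1.5-fold was also passed by 4 of 10 rows, those of HLA-F, TAP1 and NLRC5 and the overlapping TAP2 row, against 3.79% of all genes called lower, 3.47% called higher and 7.26% called in either direction. In all 10 rows both treated libraries lay below both controls, against 27.2% of all genes, while 45.9% of all genes lay above in both. The median log2 fold change was -0.42 over the 10 rows and 0.07 over all genes tested. Of all 1070 genes called, 47.8% were higher, and this share was 32.4% when libraries were scaled to a common median or quantile normalized, while the fold change stayed negative in all 10 rows under both. After quantile normalization HLA-B was at -0.20, HLA-C at -0.15 and B2M at -0.10, the last with an adjusted p of 0.0813 (limma).

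These calls rest on which DMSO libraries serve as the control. Without any compound, 9 of 10 rows were higher in both DMSO libraries of the SGC-CBP30 experiment than in both of the CPI203 experiment (35.1% of all genes), and B2M was lower in both (36.2% of all genes). The ratio of the DMSO means was 0.969 for B2M and ran from 1.22 for HLA-C to 1.78 for HLA-F in the other rows. When SGC-CBP30 was set against the DMSO pair that goes with CPI203, 0 of the 10 rows were called, against 1366 of the 14732 genes. The sign turned in 5 rows, with HLA-B at 0.04 and HLA-F at 0.11 on the log2 scale. None of these 5 passed the test (limma adjusted p from 0.0547 to 0.951). Without the minimum fold, TAP1 was still lower, by 0.33 (limma adjusted p = 0.000173), and so was B2M, by 0.22 (limma adjusted p = 0.000293). With all 4 DMSO libraries as the control 0 of the 10 rows were called as well, against 965 of the 14732 genes. TAP1 was then at -0.48, NLRC5 at -0.41 and HLA-F at -0.30. In bulk RNA, fewer cells of a kind and less RNA per cell cannot be told apart. The swap of controls was added after the data were seen, and no source used here describes what differs between the experiments.

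NLRC5, which acts through factors bound at class I promoters, lies on chromosome 16 (ENSG00000140853, hg19 chr16:57023396-57117443). It measured 12.3 and 13.0 RPKM in the control libraries, against 7.68 and 8.74 RPKM in the treated ones. The groups do not overlap, and the log2 fold change was -0.62 (SE 0.126, limma adjusted p = 0.00392). This call was lost without the first SGC-CBP30 library (-0.53), with a pseudocount of 1 (-0.57) and without a filter on low values (limma adjusted p = 0.0552).

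HLA-B (ENSG00000234745, chr6:31321648-31324965) and HLA-C (ENSG00000204525, chr6:31236525-31239907) encode classical heavy chains that present peptides to CD8 T cells and are also ligands of NK cell receptors. HLA-B was at 658 and 696 RPKM in DMSO and at 555 and 546 RPKM with SGC-CBP30. HLA-C was at 521 and 543 RPKM in DMSO and at 434 and 415 RPKM with SGC-CBP30. Both genes were lower in each treated library than in either control, with log2 fold changes of -0.30 for HLA-B (SE 0.034, limma adjusted p = 0.000177) and -0.33 for HLA-C (SE 0.039, limma adjusted p = 0.000244).

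HLA-E (ENSG00000204592, chr6:30457243-30461982) and HLA-F (ENSG00000204642, chr6:29690551-29706305) encode non-classical heavy chains of little polymorphism. HLA-E was at 137 and 143 RPKM in DMSO and at 110.3 and 107 RPKM with SGC-CBP30, a log2 fold change of -0.37 (SE 0.038, limma adjusted p = 0.000106). HLA-F was at 53.9 and 60.5 RPKM in DMSO and at 34.0 and 35.5 RPKM with SGC-CBP30. The treated HLA-F libraries lie well below the controls, and the log2 fold change of -0.71 (SE 0.071, limma adjusted p = 8.55e-05) is the largest among the members.

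B2M (ENSG00000166710, chr15:45003674-45011075), the invariant light chain shared by all class I molecules, was the least changed. It was at 1398 and 1408 RPKM in DMSO and at 1219 and 1261 RPKM with SGC-CBP30. The groups are separate, and the log2 fold change was -0.18 (SE 0.029, limma adjusted p = 0.00143).

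TAP1 and TAP2 encode the subunits of the peptide transporter, and both lie in the class II part of the complex on chromosome 6. TAP1 (ENSG00000168394, chr6:32812985-32821755) was at 62.2 and 63.6 RPKM in DMSO and at 41.5 and 39.8 RPKM with SGC-CBP30. TAP2 (ENSG00000204267, chr6:32789609-32806557) was at 44.9 and 46.6 RPKM in DMSO and at 37.3 and 35.8 RPKM with SGC-CBP30. TAP1 fell by 0.63 on the log2 scale (SE 0.040, limma adjusted p = 5.13e-06) and TAP2 by 0.32 (SE 0.046, limma adjusted p = 0.000678), and no treated library reached the level of a control for either gene. The overlapping TAP2 row (ENSG00000250264, chr6:32781543-32806599) also overlaps HLA-DOB and is low, with 9.73 and 9.28 RPKM in the controls and 6.51 and 5.50 RPKM in treated cells. Its log2 fold change was -0.66 (SE 0.150, limma adjusted p = 0.00729), and the adjusted p was 0.0619 (limma) without the second SGC-CBP30 library.

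TAPBP (ENSG00000231925, chr6:33267470-33282164), which encodes tapasin, was at 117 and 113 RPKM in DMSO and at 85.9 and 79.7 RPKM with SGC-CBP30. Its decrease of 0.47 on the log2 scale (SE 0.055, limma adjusted p = 0.000218) was larger than the difference between the treated libraries but short of 1.5-fold.

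**Figure D2:**
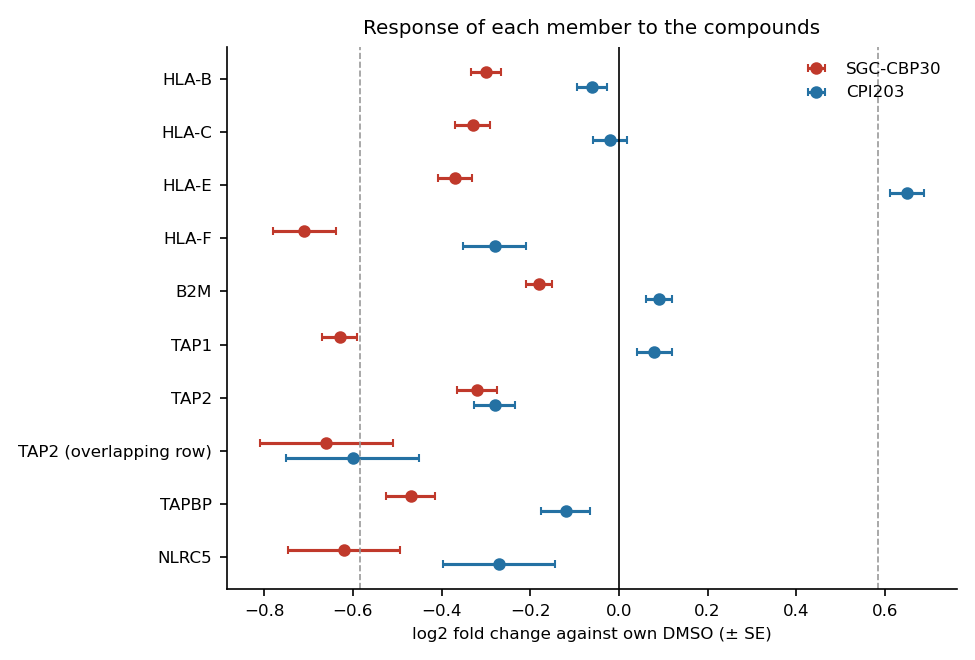
log2 fold change of each row of the members against the DMSO libraries of its own experiment (horizontal axis), with its standard error from limma as a bar, for SGC-CBP30 (red) and CPI203 (blue); dashed lines mark 1.5-fold. The red points run from -0.71 to -0.18, while the blue points lie between -0.60 and 0.09 apart from HLA-E at 0.65.

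The promoters of the members that fell with SGC-CBP30 are shown because class I promoters share elements for NFY, cAMP-response, interferon-regulatory and NF-kappa B factors. Windows of 250 bases upstream of the start were taken from RefSeq (GRCh38.p14) and were found for 7 of the 9 genes, HLA-B, HLA-C, HLA-F, B2M, TAP1, TAP2 and TAPBP. Each sequence is written 5′ to 3′ on the strand of the gene, and capitals mark matches on either strand to the core of an interferon-stimulated response element (GAAA, any 2 bases, GAAA), to kappa B (GGG, any 2 bases, TTCCC), to the Y box (CCAAT) or to part of a cAMP response element (TGACG). The windows are chr6:31357180-31357429 (minus strand) for HLA-B, chr6:29723184-29723433 (plus) for HLA-F, chr15:44711267-44711516 (plus) for B2M, chr6:32853705-32853954 (minus) for TAP1, chr6:32838740-32838989 (minus) for TAP2 and chr6:33314079-33314328 (minus) for TAPBP.
HLA-B: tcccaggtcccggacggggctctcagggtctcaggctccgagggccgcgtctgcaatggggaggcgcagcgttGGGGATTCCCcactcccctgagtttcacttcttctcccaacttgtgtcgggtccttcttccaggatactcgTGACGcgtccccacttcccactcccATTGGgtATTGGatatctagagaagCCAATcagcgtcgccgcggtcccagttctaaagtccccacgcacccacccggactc
HLA-F: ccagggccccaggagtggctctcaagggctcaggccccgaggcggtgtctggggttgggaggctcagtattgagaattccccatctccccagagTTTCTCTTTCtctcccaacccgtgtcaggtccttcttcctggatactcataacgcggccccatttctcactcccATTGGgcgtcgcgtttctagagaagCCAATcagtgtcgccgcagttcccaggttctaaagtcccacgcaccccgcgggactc
B2M: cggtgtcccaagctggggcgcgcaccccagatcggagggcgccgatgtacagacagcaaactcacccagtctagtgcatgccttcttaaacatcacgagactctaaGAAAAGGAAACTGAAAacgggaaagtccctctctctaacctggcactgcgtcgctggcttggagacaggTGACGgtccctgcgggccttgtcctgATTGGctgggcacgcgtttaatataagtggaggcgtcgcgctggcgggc
TAP1: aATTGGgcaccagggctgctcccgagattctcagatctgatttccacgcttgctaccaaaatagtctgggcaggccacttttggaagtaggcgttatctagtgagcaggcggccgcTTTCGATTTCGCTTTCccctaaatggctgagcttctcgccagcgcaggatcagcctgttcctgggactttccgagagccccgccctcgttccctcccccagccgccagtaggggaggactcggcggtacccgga
TAP2: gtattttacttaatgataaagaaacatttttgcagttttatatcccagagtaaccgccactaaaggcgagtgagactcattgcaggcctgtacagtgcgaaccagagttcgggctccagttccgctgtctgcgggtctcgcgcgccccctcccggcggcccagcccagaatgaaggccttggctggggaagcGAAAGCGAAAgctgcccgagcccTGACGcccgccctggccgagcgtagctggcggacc
TAPBP: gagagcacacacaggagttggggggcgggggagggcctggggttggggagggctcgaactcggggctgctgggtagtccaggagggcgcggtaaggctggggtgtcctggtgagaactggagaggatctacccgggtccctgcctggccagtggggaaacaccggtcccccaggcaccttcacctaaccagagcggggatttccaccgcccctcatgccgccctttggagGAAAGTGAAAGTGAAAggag

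The core of the interferon-stimulated response element stood in 5 of the 8 windows of these 7 genes, those of HLA-F, B2M, TAP1, TAP2 and TAPBP, and in 3.02% of the 35116 RefSeq promoter windows of this length. In B2M, TAP1 and TAPBP there were 2 such matches that overlap each other. TAP1 has a second start, and the window before it (chr6:32852762-32853011) holds none of the 4 motifs. The kappa B letters were found in the window of HLA-B, 1 of 8, and in 1.97% of all windows. CCAAT was present in 5 of 8 windows (32% of all windows), and TGACG in 4 of 8 (21.2% of all windows). TAP1 had the interferon-response letters 134 to 119 bases upstream of its first start and lies head to head with PSMB9, whose start is 488 bases from that start and 1431 from the second. Only the exact letters given above were searched, so an element spelled otherwise is neither marked nor counted, and an unmarked window may still hold it. These matches describe the letters of the windows and say nothing of which factor was bound in LP-1 cells.

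The second comparison asked what inhibition of the BET bromodomains does to the same genes. With CPI203 the members did not move together. HLA-E rose to 1.57 times its DMSO level, B2M rose slightly, and HLA-F and TAP2 fell. For HLA-B, HLA-C, TAP1, TAPBP and NLRC5 no change passed the test. At an adjusted p under 0.05 (limma), 3 of 10 rows were lower and 2 higher, against 33.1% and 31.1% of all genes. With the minimum of 1.5-fold, HLA-E was called higher (13.4% of all genes were) and the overlapping TAP2 row was called lower (14.4% of all genes were), which makes 2 of 10 rows against 27.8% of all genes in either direction. Both CPI203 libraries were below both DMSO libraries in 5 rows and above them in 3, against 41.7% and 39.2% of all genes. The median log2 fold change was -0.09 over the members and -0.01 over all genes.

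HLA-E was at 103 and 99.9 RPKM in DMSO and at 156 and 163 RPKM with CPI203. The treated libraries lie far above the controls, with a log2 fold change of 0.65 (SE 0.038, limma adjusted p = 4.12e-07). Against the DMSO pair that goes with SGC-CBP30, which is higher, the change was 0.19 (limma adjusted p = 0.00132) and did not reach 1.5-fold, and against all 4 DMSO libraries it was 0.42. With that other pair as the control 5 of 10 rows were called, against 5324 of the 14732 genes. They were HLA-F at -1.11, NLRC5 at -0.70, TAP2 at -0.60, the overlapping TAP2 row at -1.39 and TAPBP at -0.59. B2M was at 1421 and 1475 RPKM in DMSO and at 1573 and 1516 RPKM with CPI203, a log2 fold change of 0.09 (SE 0.029, limma adjusted p = 0.0186, and 0.00188 to 0.135 over the alternatives).

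The classical heavy chains stayed close to their controls. HLA-B was at 545 and 525 RPKM in DMSO and at 508 and 521 RPKM with CPI203, with a log2 fold change of -0.06 (95% confidence interval -0.13 to 0.02, limma adjusted p = 0.16). HLA-C was at 448 and 426 RPKM in DMSO and at 421 and 442 RPKM with CPI203, and these groups overlap. Its log2 fold change was -0.02 (interval -0.11 to 0.07, limma adjusted p = 0.694). HLA-F, in contrast, was lower in both treated libraries, at 33.1 and 31.3 RPKM in DMSO and 24.9 and 28.1 RPKM with CPI203, a log2 fold change of -0.28 (SE 0.071, limma adjusted p = 0.00581, and at most 0.0548 over the alternatives).

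The transporter genes parted. TAP1 was at 51.6 and 50.5 RPKM in DMSO and at 53.8 and 54.4 RPKM with CPI203, with a log2 fold change of 0.08 (interval -0.01 to 0.17, limma adjusted p = 0.092). TAP2 was at 35.7 and 37.5 RPKM in DMSO and at 29.8 and 30.4 RPKM with CPI203 and fell by 0.28 (SE 0.046, limma adjusted p = 0.000439). Its overlapping row was at 5.50 and 5.39 RPKM in DMSO and at 4.27 and 2.98 RPKM with CPI203, a log2 fold change of -0.60 (limma adjusted p = 0.00592), and lost the 1.5-fold call, at -0.34, without the second CPI203 library and, at -0.58, without the first DMSO library. TAPBP was at 86.8 and 78.4 RPKM in DMSO and at 74.4 and 77.6 RPKM with CPI203, and its log2 fold change of -0.12 (interval -0.24 to 0.01, limma adjusted p = 0.0862) did not pass. NLRC5 was at 8.67 and 10.1 RPKM in DMSO and at 8.85 and 6.81 RPKM with CPI203. These groups overlap, and the change of -0.27 (interval -0.55 to 0.02, limma adjusted p = 0.0904) did not pass either.

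The responses to the compounds were then compared directly, as the change with SGC-CBP30 minus the change with CPI203, each against its own DMSO. Their targets, doses and experiments all differ. The difference was negative in all 10 rows and passed the test in 7 of them, against 50.3% of all genes in either direction 21% in the negative direction and 29.3% in the positive. It was widest for HLA-E, at -1.02 on the log2 scale (SE 0.054, limma adjusted p = 9.28e-07), where the changes went in opposite directions, and for TAP1, at -0.71 (SE 0.056, limma adjusted p = 7.9e-06). HLA-F (-0.43), TAPBP (-0.35), HLA-C (-0.31), B2M (-0.27) and HLA-B (-0.24) also differed, with limma adjusted p-values between 0.000488 and 0.00569. No difference was shown for NLRC5 (-0.36, interval -0.76 to 0.04, limma adjusted p = 0.121), for TAP2 (-0.04, interval -0.19 to 0.11, limma adjusted p = 0.628) or for the overlapping TAP2 row (-0.06, interval -0.54 to 0.42, limma adjusted p = 0.828). Since the difference also holds the gap between the DMSO pairs, its direction rests on them for most members. With all 4 DMSO libraries as a common control the DMSO terms cancel, so the treated libraries are compared directly across the experiments. In that comparison 7 of 10 rows passed. Of these 3 were negative, HLA-E (-0.55), TAP1 (-0.41) and B2M (-0.32), against 30.4% of all genes. The other 4 were positive, the overlapping TAP2 row (0.73), HLA-F (0.39), TAP2 (0.28) and HLA-B (0.10), against 38.0% of all genes. With the pairs exchanged, 1 row passed in the negative direction, that of B2M (-0.36), and 7 in the positive, against 30.3% and 36.4% of all genes. B2M was thus negative and past the test with each compound's own controls, with the pairs exchanged, and between the treated libraries alone.

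The pattern of HLA-E, called higher with CPI203 and lower at an adjusted p under 0.05 with SGC-CBP30, was shared by 119 of the 14732 genes (0.808%).

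The make-up of the class I genes shifted with these changes. The summed RPKM of HLA-B, HLA-C, HLA-E and HLA-F was 1369 and 1443 in DMSO and 1133 and 1104 with SGC-CBP30, and it was 1129.5 and 1083 in DMSO and 1109.5 and 1154 with CPI203. The sum was lower with SGC-CBP30 in both libraries (log2 ratio of the means -0.33) and overlapped its controls with CPI203 (0.03). The sums, shares and ratios were left out of the model across genes and are given as values with no test, since an exact permutation of 2 libraries against 2, in which at least 2 of the 6 arrangements are as extreme as the data, allows no p under 0.05. HLA-E made up 9.96% ± 0.0582 (SD, n = 2) of the sum in DMSO and 9.71% ± 0.0367 with SGC-CBP30, and 9.16% ± 0.0976 in DMSO and 14.1% ± 0.0138 with CPI203. The share was thus slightly lower in both SGC-CBP30 libraries than in their controls and far higher in both CPI203 libraries. HLA-F took 4.07% ± 0.180 of the sum in DMSO and 3.11% ± 0.149 with SGC-CBP30, and 2.91% ± 0.0273 in DMSO and 2.34% ± 0.133 with CPI203, lower in both treated groups.

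The ratio of TAP1 to TAP2 was 1.39 and 1.37 in DMSO and 1.11 in both SGC-CBP30 libraries. In the CPI203 experiment it was 1.44 and 1.35 in DMSO and 1.81 and 1.79 with the compound. The ratio therefore moved in opposite directions, and within each experiment the treated libraries did not overlap the controls. B2M stood at 0.999 ± 0.0321 (SD, n = 2) times the heavy chain sum in DMSO and 1.11 ± 0.0471 with SGC-CBP30, and at 1.31 ± 0.0736 in DMSO and 1.37 ± 0.0731 with CPI203.

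**Figure D3:**
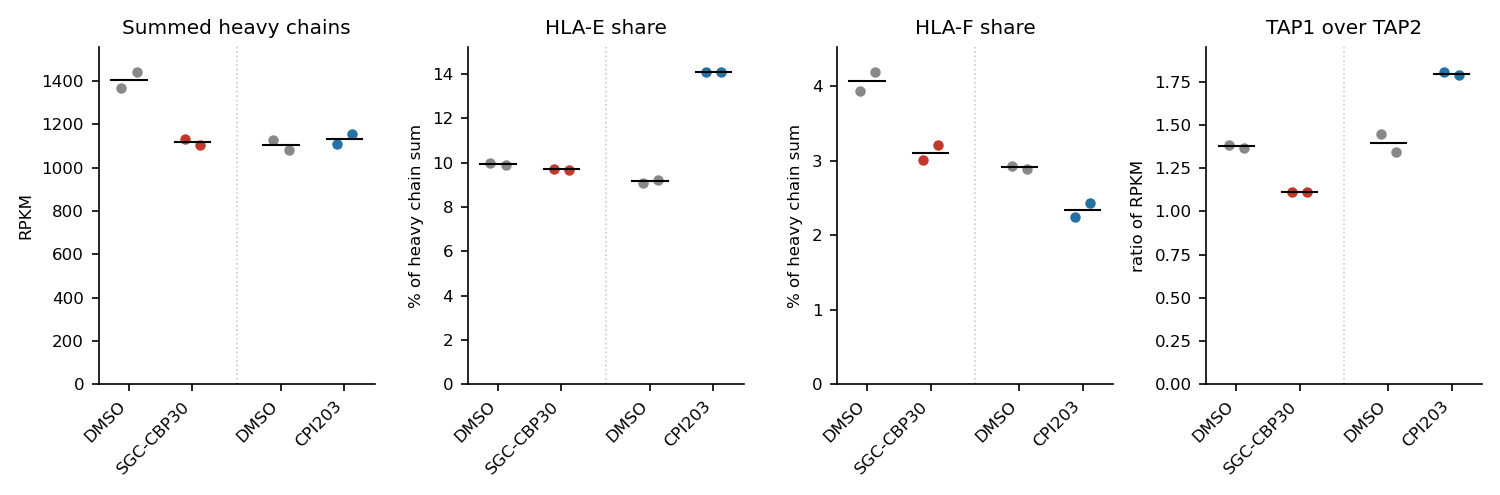
From left to right, the summed RPKM of HLA-B, HLA-C, HLA-E and HLA-F, the shares of HLA-E and of HLA-F in that sum in percent, and the ratio of TAP1 to TAP2 (vertical axes, each from 0), with points for the 8 libraries and lines for group means. The sum is lowered with SGC-CBP30 against its own DMSO, the HLA-E share reaches 14.1% with CPI203, and the TAP1 to TAP2 ratio falls to 1.11 with SGC-CBP30 and rises to 1.80 with CPI203.

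Other genes of the pathway were read from 7 lists, of which 42 genes passed the filter. At an adjusted p under 0.05 (limma), SGC-CBP30 lowered 16 of the 42 and raised 7, against 14.8% and 25.6% of all genes. At 1.5-fold, 5 were called lower and 0 higher, against 3.79% and 3.47% of all genes. With CPI203, 17 were lower and 11 higher (33.1% and 31.1% of all genes), and 3 were called lower and 9 higher (14.4% and 13.4% of all genes), so that the 12 calls are near the 27.8% of all genes called.

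The immunoproteasome and PA28 genes, which encode the inducible catalytic subunits and the activator that favour class I peptides, went with the members. All 5 fell with SGC-CBP30 at an adjusted p under 0.05 (14.8% of all genes did), with a median log2 fold change of -0.40. Of these, 2 were called lower, against 3.79% of all genes. PSMB8 (chr6:32808493-32812480), beside TAP1 and TAP2, was at 84.8 ± 2.08 RPKM in DMSO (SD, n = 2), against 50.9 ± 0.407 RPKM in treated cells, a log2 fold change of -0.73 (limma adjusted p = 2.73e-06). PSMB9 (chr6:32811912-32827362) was at 81.4 ± 2.41 RPKM in DMSO, against 52.9 ± 1.29 RPKM in treated cells, a log2 fold change of -0.62 (limma adjusted p = 2.13e-05). The PSMB9 row covers all 8771 bases of the TAP1 row, and whether strand was used in assigning reads is not given in the sources used here, so reads of the 2 genes may not be fully told apart. With CPI203, 4 of the 5 genes were lower (33.1% of all genes were) and none reached 1.5-fold, PSMB8 at -0.40 (limma adjusted p = 2.02e-05) and PSMB9 at -0.29 (limma adjusted p = 0.000522). As for the members, both DMSO libraries of the SGC-CBP30 experiment were above both of the CPI203 experiment for 5 of 5 genes, against 35.1% of all genes.

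Of the constitutive counterparts PSMB5, PSMB6 and PSMB7, 2 of 3 were lower with either compound at an adjusted p under 0.05, none at 1.5-fold. Over all genes, 14.8% were lower with SGC-CBP30 and 33.1% with CPI203 at that adjusted p. The median log2 fold changes of the 3 were -0.12 with SGC-CBP30 and -0.17 with CPI203. PSMB5 fell by 0.38 with CPI203 (limma adjusted p = 3.07e-05), and PSMB6 fell by 0.27 with SGC-CBP30 (limma adjusted p = 0.000393). The ratio of PSMB8 to PSMB5 was 0.957 ± 0.0117 (SD, n = 2) in DMSO and 0.611 ± 0.0159 with SGC-CBP30, and 0.730 ± 0.00235 in DMSO and 0.719 ± 0.0115 with CPI203. The ratio of PSMB9 to PSMB6 went from 0.319 to 0.251 with SGC-CBP30 and from 0.263 to 0.241 with CPI203. That of PSMB10 to PSMB7 went from 0.706 to 0.622 with SGC-CBP30 and from 0.666 to 0.542 with CPI203. Of 7 genes for chaperones and trimming enzymes of the endoplasmic reticulum, 2 were lower with SGC-CBP30 (14.8% of all genes were), with a median of -0.06. With CPI203, 3 were lower and 1 higher (33.1% and 31.1% of all genes), with a median of -0.11. None reached 1.5-fold with either compound. ERAP2, an aminopeptidase that trims peptides, fell by 0.47 with CPI203 (limma adjusted p = 4.71e-05), and TAPBPL, a relative of tapasin, fell by 0.37 with SGC-CBP30 (limma adjusted p = 0.00433) and by 0.34 with CPI203 (limma adjusted p = 0.00273).

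Among 12 factors that bind class I promoters, 2 were lower and 4 higher with SGC-CBP30 (14.8% and 25.6% of all genes), and 1 was called (7.26% of all genes). IRF2, an interferon regulatory factor, was at 38.8 ± 0.532 RPKM in DMSO (SD, n = 2), against 18.4 ± 0.185 RPKM in treated cells, a log2 fold change of -1.07 (limma adjusted p = 1.48e-06). With CPI203 IRF2 was lower by less, at 24.7 ± 1.21 RPKM in DMSO, against 17.3 ± 0.751 RPKM in treated cells, a log2 fold change of -0.51 (limma adjusted p = 2.43e-05). The treated means were close, while the DMSO mean of the SGC-CBP30 experiment was 1.57 times that of the CPI203 experiment. Both SGC-CBP30 libraries, at 18.5 and 18.3 RPKM, were also below that other DMSO pair, at 23.8 and 25.5 RPKM, but IRF2 was not called against it. With CPI203, 6 factors were lower and 3 higher, near the 33.1% and 31.1% of all genes for the 12. RFXAP (-0.85), RFX5 (-0.67) and NFKB1 (-0.63) were called lower (14.4% of all genes were). CREB1 (1.10) and NFYA (0.99) were called higher (13.4% of all genes were). The limma adjusted p-values of these 5 were at most 3.44e-05. RFX5 and RFXAP are subunits of the RFX complex, and NFYA is a subunit of NFY.

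Genes of the interferon gamma receptor chain were not called with SGC-CBP30, where 2 of the 5 tested were higher (25.6% of all genes were), with a median of 0.06. With CPI203, IFNGR1 (log2 fold change 1.00), JAK1 (0.83) and JAK2 (0.82) were called higher, as were 13.4% of all genes. IFNGR2 was lower (-0.29, limma adjusted p = 0.0003), and the median of the 5 was 0.82. Of 14 interferon-stimulated genes 6 passed the filter. OAS1, a sensor of double-stranded RNA, was called lower with SGC-CBP30 (-0.89, limma adjusted p = 0.00259), as were 3.79% of all genes. IRF7 (2.46), IRF9 (1.46), STAT2 (1.20) and IFI6 (0.71) were called higher with CPI203 (13.4% of all genes were), with limma adjusted p-values of at most 0.000443. With CPI203, OAS1 was at -0.41 (limma adjusted p = 0.0546) and ISG15 at -0.34 (limma adjusted p = 0.447). The medians of these 6 genes were -0.28 with SGC-CBP30 and 0.96 with CPI203. The other 8 genes of the list averaged under 1 RPKM and are not part of these medians.

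Of 10 class I-like genes and ligands of the NK cell receptor NKG2D, 4 passed the filter. FCGRT, whose product pairs with B2M and recycles IgG, was at 23.0 ± 1.33 RPKM in DMSO (SD, n = 2), against 14.8 ± 0.508 RPKM in treated cells. It was called lower with SGC-CBP30 (-0.63, limma adjusted p = 0.000132), as were 3.79% of all genes. The DMSO pair that goes with CPI203 was at 12.7 and 12.1 RPKM, below both SGC-CBP30 libraries, at 15.1 and 14.4 RPKM. With CPI203 none of the 4 was called, against 27.8% of all genes.

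**Figure D4:**
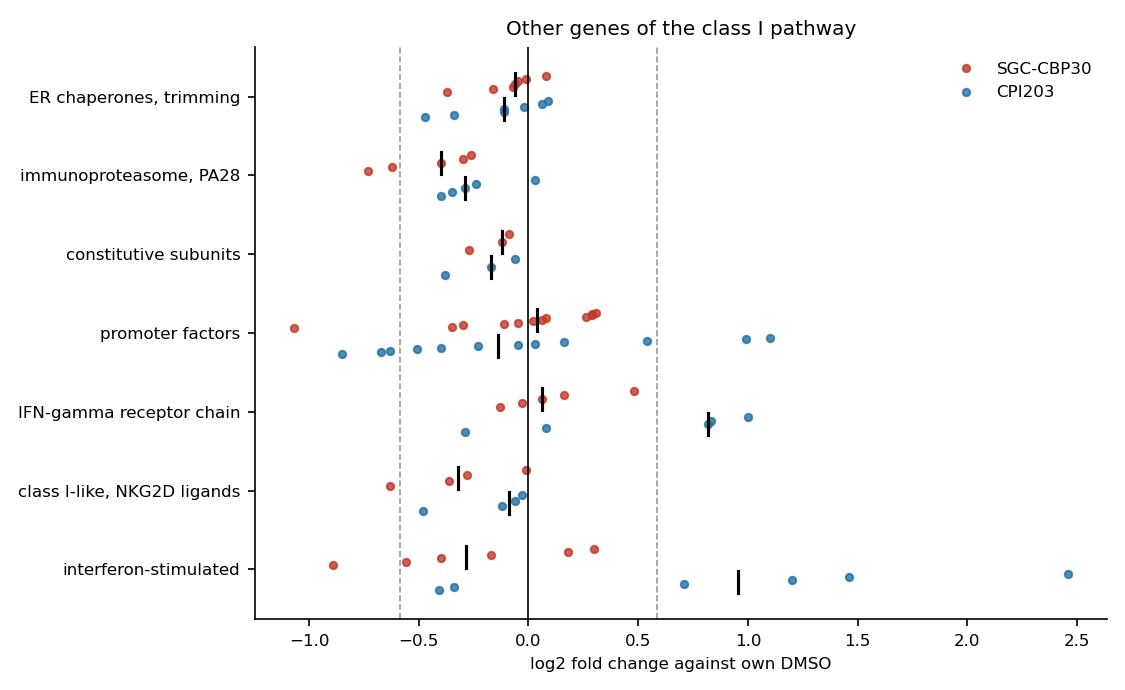
log2 fold change against the DMSO libraries of the same experiment (horizontal axis) for the 42 tested genes of 7 lists of the class I pathway, 1 point a gene, for SGC-CBP30 (red) and CPI203 (blue); short lines are list medians and dashed lines mark 1.5-fold. The immunoproteasome and PA28 genes lie left of 0 with SGC-CBP30 (median -0.40), and the medians of the interferon receptor chain and the interferon-stimulated genes lie furthest right with CPI203 (0.82 and 0.96), with genes of both lists also left of 0.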

How the data were processed

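Total RNA of 8 LP-1 libraries, 2 biological replicates in each of 4 groups, was sequenced by a service provider. The deposited table gives RPKM for every gene of each library, as computed for the authors. The submitters' processing notes name TopHat 1.4.1, Cufflinks and hg19, while the annotation release and the use of strand are not given in the sources used here. A further 24 columns of libraries outside these samples were not used.

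After 27 rows with a missing value were left out, 14732 genes that averaged 1 RPKM or more were tested. With limma 3.58.1 in R 4.3.3 (eBayes, trend on) a model was fitted to log2(RPKM + 0.1) for the 4 group means, with 4 residual and 5.48 prior degrees of freedom and Benjamini-Hochberg adjustment over the genes tested. Fold changes are on this scale, on which those of low genes are understated. A gene was called at an adjusted p under 0.05 and at least 1.5-fold, and the difference between the compounds at an adjusted p under 0.05. The fit was tested on simulated data. Read counts were not used here, so depth was estimated from genes of at least 800 bases under 0.5 RPKM, of whose values 57.6% to 71.4% per library lay within 0.1 of a whole number of reads. RPKM total was 481842 to 498947 per library. No count test was run.

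All 9 members were named, and from the pathway lists the called genes (at most the 4 largest changes per comparison), PSMB8 and PSMB9, and for HLA-B, TAP1 and NLRC5 the 3 genes of highest Pearson r. Genes named with no call (ERAP2, TAPBPL, IFNGR2, ISG15 and the constitutive subunits) or beyond this limit among the promoter factors (NFKB1) were added after their values were seen. The members and lists were chosen with earlier results of these data known. Some genes of the lists are not reported here. Alternatives were another pseudocount, other filters, median and quantile scaling, other controls, a replicate block, fits for each experiment alone, no trend, no minimum fold, and the omission of single libraries. Tables were made in Python 3.11.15 (pandas 2.3.3, numpy 2.4.6), and matplotlib 3.10.9 drew the figures.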

Additional observations from a re-analysis of the deposited data

How the results depend on the processing

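Each group holds 2 libraries, and the choice of control and the minimum fold both move the counts of members. Members called with SGC-CBP30 numbered 4, and this became 0 with all 4 DMSO libraries or with those of the other experiment, 2 without a filter on low values, 10 without a minimum fold, and 3 to 4 when 1 library was left out. Members called with CPI203 numbered 2, and this became 1 with a pseudocount of 1 or without a filter, 5 with the other DMSO libraries or without a minimum fold, and 1 to 2 when 1 library was left out. The causes were not tested, apart from the minimum fold, which only removes a criterion. Genes called over the whole table were 1070 with SGC-CBP30. They were 965 against all 4 DMSO libraries, 1366 against the other pair, 667 at a pseudocount of 1, 505 at a mean of at least 5 RPKM and 5945 without a minimum fold. With CPI203 they were 4095, with 5324 against the other pair, 2590 at a mean of at least 5 RPKM and 9459 without a minimum fold. Calls in the pathway lists were 5 with SGC-CBP30, with 2 against all 4 DMSO libraries, 0 against the other pair and 23 without a minimum fold, and 12 with CPI203, with 28 without a minimum fold.

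Against the other DMSO pair the log2 fold changes with SGC-CBP30 turned to 0.04 for HLA-B, 0.10 for HLA-E, 0.11 for HLA-F, 0.13 for the overlapping TAP2 row and 0.00 for TAPBP. Their limma adjusted p-values ran from 0.0547 to 0.951. With CPI203, TAP1 turned to -0.07 against all 4 DMSO libraries and -0.22 against the other pair, and HLA-C to 0.02 without either the first DMSO or the first CPI203 library (range -0.06 to 0.02 over single libraries left out). The difference between the compounds turned for the overlapping TAP2 row, to 0.06 without the second SGC-CBP30 library and 0.19 without the first CPI203 library (range -0.31 to 0.19). With all 4 DMSO libraries as a common control, the DMSO terms cancel and the treated libraries are compared directly. The difference then turned to 0.10 for HLA-B, 0.39 for HLA-F, 0.28 for TAP2, 0.73 for the overlapping row, 0.12 for TAPBP and 0.08 for NLRC5. With the DMSO pairs exchanged, tried after the data were seen, it turned to 0.44 for HLA-B, 0.26 for HLA-C, 1.22 for HLA-F, 0.60 for TAP2 and TAPBP, 1.52 for the overlapping row and 0.51 for NLRC5. The members that differed between the compounds numbered 6 to 8 over the alternatives, in either direction, with HLA-C at an adjusted p of 0.0646 after quantile normalization, HLA-F at 0.0589 without a filter, and NLRC5 at 0.0174 without the second CPI203 library (limma). The summed heavy chains with CPI203 were at 0.11 without HLA-B and -0.05 without HLA-E, against 0.03. Replicate numbers are shared between groups, and the study speaks of paired DMSO controls, but the labels do not say what libraries of 1 number share, and deviations of same-numbered libraries correlated at -0.172 and -0.039. With the replicate number as a block, 4 members were called with SGC-CBP30, 2 with CPI203 and 7 differed between the compounds, and B2M with CPI203 moved to an adjusted p of 0.0673 (limma).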

Other observations

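Of the 9 genes, 7 lie between HLA-F and TAPBP on chromosome 6 (hg19 chr6:29690551-33282164), a span that holds 122 other genes tested. At an adjusted p under 0.05 (limma), SGC-CBP30 lowered 39 of these and raised 14, against 14.8% and 25.6% of all genes. In that comparison 17 were called lower and 1 higher, against 3.79% and 3.47% of all genes, and the median log2 fold change was -0.08. With CPI203, 60 were lower and 17 higher (33.1% and 31.1% of all genes), 23 were called lower and 7 higher (14.4% and 13.4%), and the median was -0.21. For 80 of the 122, both DMSO libraries of the SGC-CBP30 experiment were above both of the CPI203 experiment, against 35.1% of all genes.

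As a description over the 8 libraries, which share 2 experiments, the genes most like HLA-B in log2 RPKM were TNIP1, DBNL and PSMA7, each with a Pearson r of 0.990. Among the members, HLA-F (r = 0.986), TAPBP (0.974) and HLA-C (0.949) followed HLA-B most closely, TAP2 (0.917) and NLRC5 (0.817) came next, and TAP1 (0.572), HLA-E (0.171) and B2M (-0.233) least. The genes most like TAP1 were KIF21B (0.988), TMSB4XP8 (0.987) and GLDC (0.987). Those most like NLRC5 were DCAF6 (0.974), RP11-64B16.2 (0.969) and RP1-232L22__B.1 (0.963).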
